A study of Mus musculus with 6 samples.

Results

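Messenger RNA was sequenced from 410.4 cells, a mouse mammary carcinoma cell line, and described here for 10 Kruppel-like factor (KLF) genes. The genes were chosen by symbol, as Klf2, Klf3, Klf4, Klf5, Klf6, Klf7, Klf9, Klf10, Klf11 and Klf13, out of 55809 symbols in the count table, and all 10 had enough counts to be tested. The cells were kept for 2 days in medium with 0.5% serum, and no gene was altered in either group. The control group (Veh in the titles, 3 libraries) received plain medium, and the other group (3 libraries) received medium in which neutrophil extracellular traps (NETs), webs of DNA and granule proteins released by neutrophils, had been isolated. The samples are of a single cell line, and the design leaves an effect of NETs mixed with any other difference of the 2 media. Whether each replicate was a culture of its own is not in the labels, so the p-values cover library-to-library spread that may be technical.

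KLFs are transcription factors that bind CACC boxes and GC-rich sites through zinc fingers near the end of the protein, and they differ in the part that recruits other proteins. KLF2, KLF4, KLF5, KLF6 and KLF7 mostly activate transcription, KLF3 represses it by recruiting the corepressor CtBP, and KLF9, KLF10, KLF11 and KLF13 recruit the corepressor SIN3A. In epithelia KLF4 is known for growth arrest and differentiation and KLF5 for proliferation, while KLF10 and KLF11 were first described as early response genes of TGF-beta, the pathway named in the title of the series.

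Libraries held 31119105 to 64431811 counts, and the 10 genes were read against a broad response. Of 13956 genes tested, 38.9% were called, and 20.2% rose and 18.7% fell with NET-conditioned medium (edgeR quasi-likelihood test, Benjamini-Hochberg adjusted p under 0.05). With libraries scaled by size alone, 35.9% of the called genes were higher, against 52.0% with the TMM scaling used here. Size scaling called 2106 genes higher and 3763 lower, against 2825 and 2605 with TMM, so list counts with library size alone have another background. The epithelial identity of the cells was visible in both groups, as the summed level of 8 epithelial markers (among them Epcam, Cdh1 and Krt8) was 4689 to 5011 CPM (counts per 1000000 TMM-scaled counts of the library) in control medium and 5249 to 5494 CPM with NETs. Of these 8 genes 3 rose (Krt7, Krt8 and Cldn4) and 3 fell (Krt18, Cdh1 and Cldn7), with the call of Cdh1 lost when control replicate 2 or 3, or NET replicate 1 or 2, was left out, and that of Cldn7 when control replicate 2, or NET replicate 1 or 3, was left out. Of 14 neutrophil markers, 7 had no count in any library, including Elane, Camp and Ngp, and the summed level of 149 to 161 CPM in control medium and 91.5 to 92.3 CPM with NETs came mostly from Itgb2 (151 ± 6.94 and 88.7 ± 0.584 CPM), while S100a8 rose 1.91-fold at a low level (1.38 to 2.63 CPM, adjusted p = 0.00136). Of 5 endothelial markers, Pecam1, Kdr, Tek and Vwf were at or below 0.0543 CPM on average in both groups, and Cdh5 was at 13 and 15.8 CPM. Of 6 macrophage markers Adgre1 had no count in any library, and their summed level was 56.3 to 61.9 CPM in control medium and 112 to 119 CPM with NETs, with Csf1r going from 24.1 to 80.2 CPM, Mrc1 from 1.05 to 0.405 CPM (adjusted p = 0.00169) and Cd68 from 12.4 to 10.7 CPM (not called). Of 6 fibroblast markers Dcn and Lum had no count in any library, and the sum was 42.8 to 48.7 CPM and 59.3 to 68.0 CPM. Most of this sum came from Pdgfra (45.4 and 49.2 CPM, not called). Col1a1 went from 1.18 to 13.4 CPM, while Col1a2 and Pdgfrb were at or below 0.0742 CPM on average in both groups. The part of these marker changes in the results was not tested.

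With NETs 6 of the 10 genes fell (Klf2, Klf3, Klf4, Klf5, Klf7 and Klf10) and 0 rose, where 18.7% and 20.2% of all tested genes did so. No member was higher at an unadjusted p under 0.05 (0 genes), or in DESeq2 or limma-voom (0 genes each). The median log2 fold change of the 10 genes was -0.33, against -0.0039 over all genes tested. In the same 6 genes the 3 libraries with NETs all lay below the 3 control libraries, as they did in 24.5% of all tested genes. In bulk RNA, fewer cells that express a gene and less of its RNA per cell cannot be told apart. By role, 4 of 5 activators, the CtBP-recruiting repressor Klf3 and 1 of 4 SIN3A-recruiting repressors fell.

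**Figure D1:**
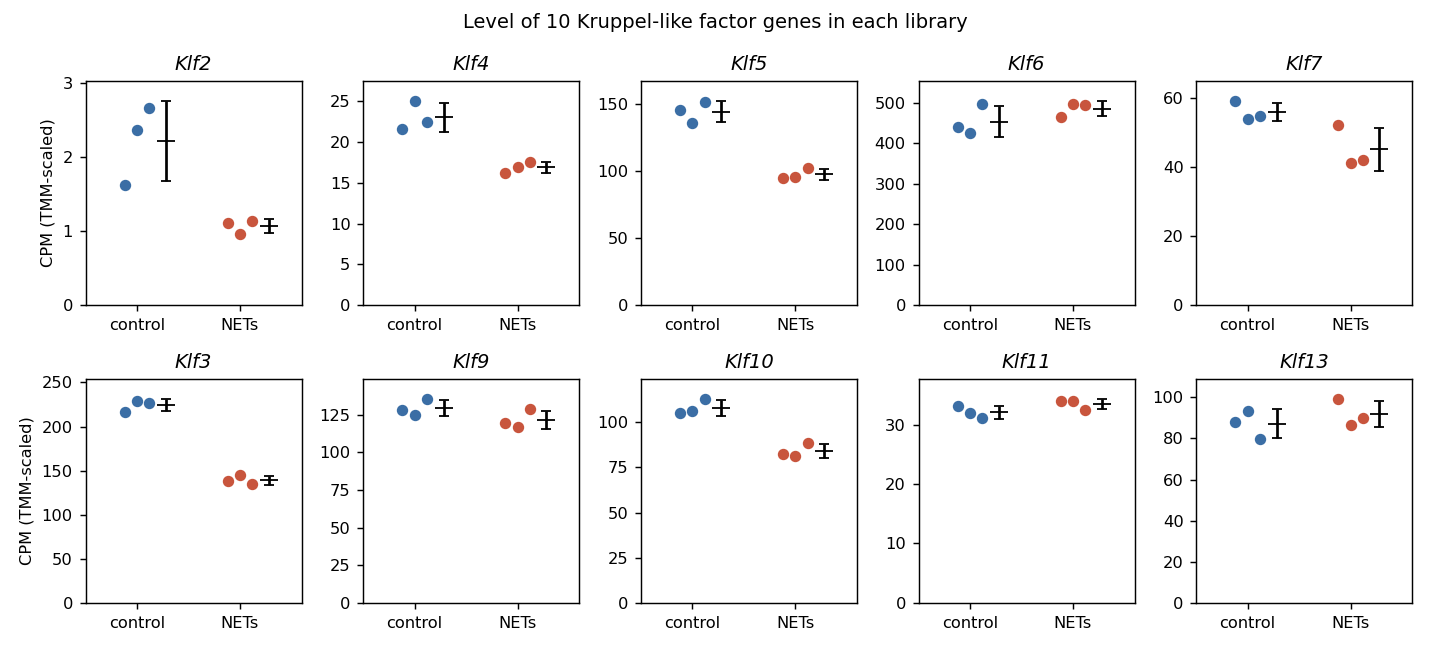
TMM-scaled CPM (vertical axis from 0) of each of the 10 genes in the 3 control libraries (blue) and the 3 libraries with NET-conditioned medium (red), with mean and SD in black; activators are in the upper row and repressors in the lower. The groups are separate in Klf2, Klf3, Klf4, Klf5, Klf7 and Klf10 and overlap in Klf6, Klf9, Klf11 and Klf13.

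Klf3 had the smallest p-value of the 10 genes. Its level was 216, 229 and 227 CPM in control replicates 1 to 3 and 138, 145 and 135 CPM in NET replicates 1 to 3. The libraries of a group lay close together and the groups were far apart. Klf3 thus fell 1.61-fold, from 224 ± 6.96 to 139 ± 5.03 CPM (mean ± SD, n = 3), a log2 fold change of -0.69 with a standard error of 0.05 (adjusted p = 6.17e-09, edgeR). Gm20033, a gene model on the other strand that overlaps Klf3 exons, had 9 to 50 counts per library against 4352 to 14387 for Klf3.

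Among the activators Klf5 had the smallest p-value. It was at 145, 136 and 151 CPM in the control libraries and at 95, 95.2 and 102 CPM with NETs, a 1.48-fold fall (log2 fold change -0.56, standard error 0.05, adjusted p = 2.57e-07). Klf4, one of the factors used to reprogram cells to pluripotency, was at 21.6, 25.0 and 22.5 CPM in control medium and at 16.2, 16.9 and 17.5 CPM with NETs. This was a 1.36-fold fall (log2 fold change -0.44, standard error 0.08, adjusted p = 0.000204). The log2 ratio of the length-scaled levels of Klf5 and Klf4, 2 factors with opposed roles in epithelial growth, was 1.67 to 1.98 in control medium and 1.72 to 1.78 with NETs, so the ranges overlapped.

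Klf2, known as a quiescence factor of endothelium and T cells, was the only member lower by at least 2-fold and the one with the fewest counts. It had 108, 107 and 147 counts in control replicates 1 to 3, and 50, 29 and 59 counts in NET replicates 1 to 3. On the CPM scale this was 1.62, 2.37 and 2.67 against 1.12, 0.963 and 1.14. The control libraries were spread more widely than those with NETs, with control replicate 1 nearest to them. The fold change was 2.04-fold lower (log2 -1.03, 95% interval -1.52 to -0.53, adjusted p = 0.00209), and it ranged from -1.22 to -0.87 on the log2 scale over the alternatives tried. Klf7, best known from neurons, was at 59.0, 54.0 and 54.8 CPM in control medium and at 52.3, 41.0 and 42.1 CPM with NETs. NET replicate 1 lay just under the lowest control library and apart from the other NET libraries. Klf7 fell 1.24-fold (log2 fold change -0.31, standard error 0.08, adjusted p = 0.00665), and by 0.43 on the log2 scale without NET replicate 1.

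Klf10, the early TGF-beta response gene, was at 105, 106 and 113 CPM in the control libraries and at 82.6, 81.2 and 88.6 CPM with NETs. All NET libraries were lower, and the fall was 1.28-fold (log2 fold change -0.36, standard error 0.05, adjusted p = 3.85e-05). Its paralog Klf11 did not pass the test, at 33.1, 31.9 and 31 CPM against 33.9, 33.9 and 32.5 CPM (log2 fold change 0.06, 95% interval -0.07 to 0.19, adjusted p = 0.460). The 2 intervals, -0.47 to -0.25 for Klf10 and that of Klf11, did not overlap, but the difference between the 2 genes was not tested.

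For the other members the test gave no call. Klf6, the member with the highest level, was at 439.6, 424 and 496 CPM in control medium and at 465, 496 and 495 CPM with NETs (log2 fold change 0.10, 95% interval -0.02 to 0.22, adjusted p = 0.202). Control replicate 3 stood as high as the NET libraries, and without it Klf6 was higher with NETs (log2 fold change 0.17, adjusted p = 0.0164), so that 1 library decided this call. Klf9, which glucocorticoids and thyroid hormone are known to induce, was at 128, 125 and 135 CPM and at 119, 117 and 129 CPM. Its log2 fold change of -0.09 (95% interval -0.20 to 0.02, adjusted p = 0.197) became a call with libraries scaled by size alone (-0.16, adjusted p = 0.0204). Klf13, which recruits SIN3A as KLF9 does, was at 88.1, 93.5 and 79.5 CPM and at 99.1, 86.6 and 89.9 CPM (log2 fold change 0.08, 95% interval -0.06 to 0.22, adjusted p = 0.368). The intervals of Klf6, Klf9, Klf11 and Klf13 hold changes of up to 0.22 on the log2 scale, which these libraries could not tell from none.

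Per length, Klf6 was by far the most abundant member. Levels between genes were compared as CPM per kilobase of exon. On that scale Klf6 stood at 103 ± 8.64 in control medium and 110.5 ± 4.04 with NETs, and it made up 41.9% to 45.1% of the summed level of the 10 genes in the control libraries and 49.4% to 51.7% with NETs. In control medium Klf5 (27.7 ± 1.5), Klf9 (26.9 ± 1.13) and Klf10 (25.8 ± 1.02) followed, neighbours whose libraries overlapped in this order. Klf3 (19.9 ± 0.619) and Klf13 (11.6 ± 0.937) came next, apart from their neighbours. Klf4 (7.55 ± 0.582), Klf11 (7.38 ± 0.238) and Klf7 (6.88 ± 0.329) overlapped each with the next, and Klf2 (1.20 ± 0.291) was last.

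With NETs the order of these length-scaled levels was different. Klf9 (25.3 ± 1.28) was now above Klf10 (20.1 ± 0.941) without overlap, and Klf10 overlapped with Klf5 (18.7 ± 0.795). Klf3 (12.4 ± 0.447) had come down to the level of Klf13 (12.2 ± 0.857), and the 2 overlapped. Klf11 (7.70 ± 0.194) stood above Klf7 (5.55 ± 0.760) and Klf4 (5.54 ± 0.210), which overlapped with each other, and Klf2 was at 0.582 ± 0.0526. Without Klf6 the summed level of the other members was 133 to 138 in the control libraries and 105 to 111 with NETs.

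**Figure D2:**
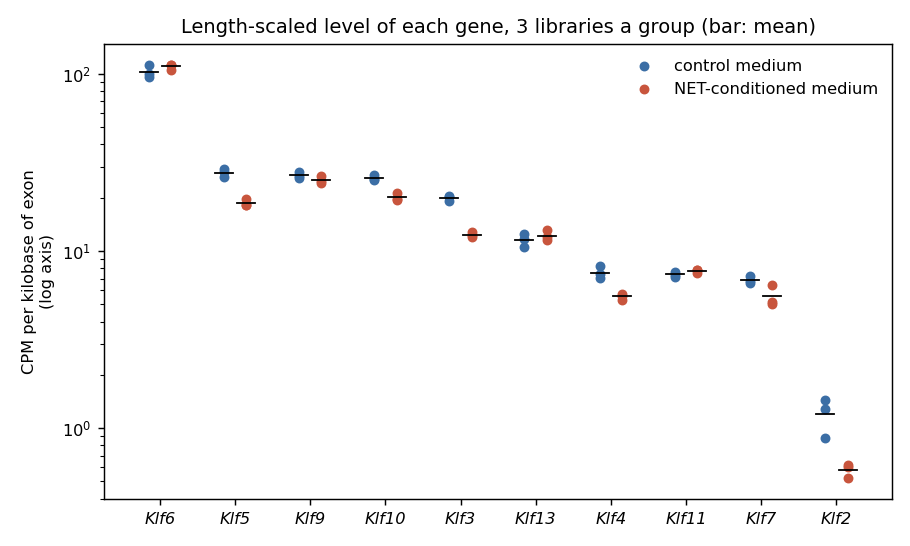
CPM per kilobase of exon (log axis) of the 10 genes in 3 control libraries (blue) and 3 libraries with NETs (red), ordered by the control mean, with the mean of each group as a black bar. Klf6 stands near 103 to 110.5, above all others, and Klf3 and Klf13 come to overlap with NETs.

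The rest of the family held 1 large change, in the opposite direction. Of 7 other Klf genes in the table, 4 could be tested, 1 rose and 0 fell, where 20.2% and 18.7% of all tested genes did so. Klf8, whose protein recruits CtBP as KLF3 does, was at 5.26, 4.71 and 5.43 CPM in control medium and at 16.1, 16.5 and 17.3 CPM with NETs. Every NET library was above every control library, and the rise was 3.23-fold (log2 fold change 1.69, standard error 0.10, adjusted p = 3.40e-10). Klf8 is known as a gene that KLF3 represses in red cell precursors. The log2 ratio of the length-scaled levels of Klf8 and Klf3 went from between -4.49 and -4.25 in control medium to between -2.02 and -1.85 with NETs, and Klf3 was the higher of the pair in all 6 libraries. Klf16, which resembles Klf13, was at 49.6, 65.9 and 52.3 CPM against 54.6, 50.2 and 51.1 CPM, with control replicate 2 above the rest (log2 fold change -0.10, adjusted p = 0.413). The red cell factor Klf1 (0.448 and 0.464 CPM on average) and the CtBP-recruiting Klf12 (0.195 and 0.257 CPM) did not pass the test at these low levels. Klf14, Klf15 and Klf17 had 0 counts in every library, which allows at most 0.0902 to 0.199 CPM depending on the library, if 3 fragments are taken as the limit. This limit covers counting error only.

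**Figure D3:**
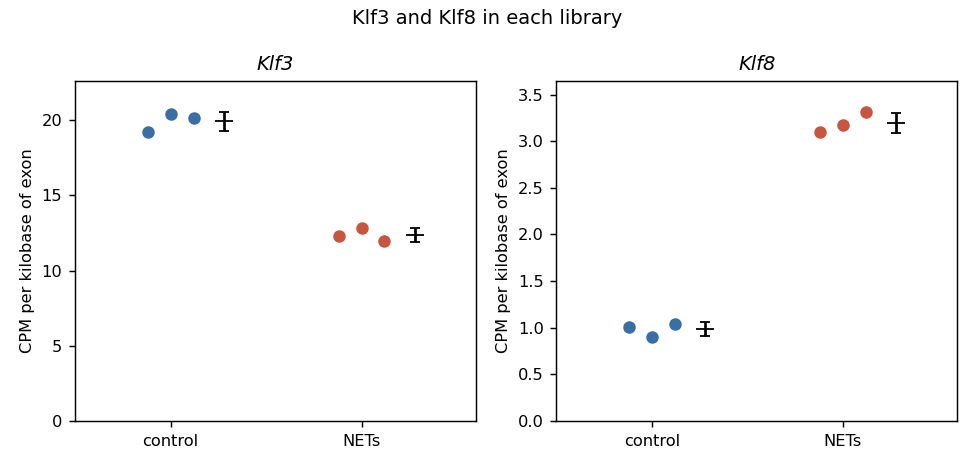
CPM per kilobase of exon (axes from 0, different scales) of Klf3 and Klf8 in the 3 control libraries (blue) and the 3 with NETs (red), with mean and SD in black. Klf3 went from 19.9 to 12.4 and Klf8 from 0.986 to 3.19.

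The promoter windows of Klf3 and Klf8 are shown because these genes moved apart and both hold repeated CACC boxes, the core of sites that KLFs bind. They are RefSeq windows of 300 bases, from 250 before to 50 after a start site, in GRCm38.p6, read 5′ to 3′ on the strand of the gene, with CACCC and its reverse complement GGGTG in capitals. A match is a run of letters and not a shown binding site. The windows are chr5:64803271-64803570 (plus strand) for Klf3, and chrX:153237498-153237797 and chrX:153359363-153359662 (plus strand) for 2 start sites of Klf8. Both Klf8 windows lie inside the GRCm38 span of the gene, which begins at 153225339, and the sequence before that point was not searched.
Klf3: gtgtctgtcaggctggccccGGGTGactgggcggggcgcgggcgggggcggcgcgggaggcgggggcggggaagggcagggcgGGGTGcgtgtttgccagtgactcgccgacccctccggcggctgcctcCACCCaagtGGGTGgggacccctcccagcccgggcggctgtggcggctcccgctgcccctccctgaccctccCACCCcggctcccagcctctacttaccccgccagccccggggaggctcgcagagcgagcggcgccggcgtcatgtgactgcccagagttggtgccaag
Klf8 first window: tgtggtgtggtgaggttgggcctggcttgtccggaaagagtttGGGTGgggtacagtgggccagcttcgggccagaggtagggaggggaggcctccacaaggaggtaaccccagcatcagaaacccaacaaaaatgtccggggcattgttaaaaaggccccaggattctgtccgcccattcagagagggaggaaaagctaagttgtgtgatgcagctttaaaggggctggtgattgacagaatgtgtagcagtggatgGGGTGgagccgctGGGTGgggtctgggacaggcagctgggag
Klf8 second window: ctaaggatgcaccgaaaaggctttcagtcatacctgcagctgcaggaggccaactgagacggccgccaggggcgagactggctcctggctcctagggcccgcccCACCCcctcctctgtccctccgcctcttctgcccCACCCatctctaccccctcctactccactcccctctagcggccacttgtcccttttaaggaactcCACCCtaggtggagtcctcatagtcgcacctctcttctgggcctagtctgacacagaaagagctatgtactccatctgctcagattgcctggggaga
The Klf3 window held 5 matches and each Klf8 window 3, where 57.5% of 32851 windows of this length held at least 1, 9.35% at least 3 and 1.02% at least 5. The Klf3 and Klf8 windows were picked with these counts in view, so the shares describe them and test nothing. Among the members that fell, Klf7 had 3 matches, Klf2 had 1 and Klf4 had 0, and among those without a call Klf9 and Klf13 had 1 each and Klf6 and Klf11 had 0. Of the other Klf genes, Klf17, with 0 counts in every library, also had 3 matches, Klf1 had 2, and Klf12 and Klf15 had 1 each. The GC box GGGCGG, which SP factors also bind and which can share a base with GGGTG, was present in 7 of the 8 member windows (all but Klf9), against 35.7% of all windows. The member windows had 58.3% to 77.7% G and C bases, above the median of 52.7% over all windows, and the part of this composition in the CACC and GC box counts was not tested.

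Another string, CCAAT, is described for the member windows. It is the core of the site of the factor NF-Y, it was 1 of 8 strings searched on both strands, and it was singled out after its counts were seen. Windows were matched for 8 of the 10 members, all but Klf5 and Klf10. The Klf7 window (chr1:64121340-64121639, minus strand) lies inside the gene, whose GRCm38 span ends at 64122345. The sequence before that outer start was not searched. The windows of Klf8 and Klf12 also lie inside their genes. None of the 4 windows of members that fell (Klf2, Klf3, Klf4 and Klf7) held CCAAT or its reverse complement ATTGG (0 matches each), whereas those of Klf6, Klf9, Klf11 and Klf13 held 4, 3, 2 and 2 matches. The other Klf genes kept to this split only in part. Klf1, not called, had 1 match, but Klf12, not called, had 0. Both windows of Klf8, which rose, had 0. Of all windows 37.4% held at least 1. The windows of Klf4 (chr4:55532426-55532725, minus strand), Klf6 (chr13:5861239-5861538, plus strand) and Klf9 (chr19:23140976-23141275, plus strand) show this contrast, with CCAAT and ATTGG in capitals.
Klf4: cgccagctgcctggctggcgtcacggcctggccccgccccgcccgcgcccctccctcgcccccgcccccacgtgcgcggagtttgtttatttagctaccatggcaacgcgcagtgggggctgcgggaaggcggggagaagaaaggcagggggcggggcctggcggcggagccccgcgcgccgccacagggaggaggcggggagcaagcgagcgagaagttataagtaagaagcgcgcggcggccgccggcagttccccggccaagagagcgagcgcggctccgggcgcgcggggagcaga
Klf6: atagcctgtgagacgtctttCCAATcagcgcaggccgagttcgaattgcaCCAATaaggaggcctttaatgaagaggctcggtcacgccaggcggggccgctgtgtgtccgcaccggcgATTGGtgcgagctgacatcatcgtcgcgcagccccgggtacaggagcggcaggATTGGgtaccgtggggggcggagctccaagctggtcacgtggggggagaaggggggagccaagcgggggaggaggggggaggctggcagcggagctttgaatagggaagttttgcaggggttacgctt
Klf9: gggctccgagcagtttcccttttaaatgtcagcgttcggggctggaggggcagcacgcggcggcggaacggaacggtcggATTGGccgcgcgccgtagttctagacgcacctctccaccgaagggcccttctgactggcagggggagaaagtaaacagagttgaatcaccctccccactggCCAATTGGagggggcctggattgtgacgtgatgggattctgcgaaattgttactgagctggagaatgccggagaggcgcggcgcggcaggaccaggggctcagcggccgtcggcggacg
In Klf9, 2 of the 3 matches overlap in a single run. The GC content of the windows was similar, 58.3% to 76.7% in the 4 members that fell and 63.0% to 77.7% in the 4 without a call. The strings TGACGTCA (the cyclic AMP response element), TGACTCA (the AP-1 site), AGAACA (a glucocorticoid receptor half-site) and TATAAA (the TATA box) matched no member window (0 of 8), and CAGAC, a SMAD half-site, matched 1 (Klf3), against 49.6% of all windows. No match says only that these letters are not in this window.

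SP factors share the zinc fingers of the KLFs and compete for GC boxes. Of 9 Sp genes 5 were tested, and 3 fell and 0 rose (median log2 fold change -0.19), where 18.7% of all tested genes fell and 20.2% rose. Sp4 went from 29.4 ± 2.7 to 19.2 ± 2.41 CPM (1.54-fold lower, adjusted p = 3.89e-05), Sp2 from 36.1 to 29.5 CPM (adjusted p = 0.00143), and Sp1, the founding member, from 190 to 166 CPM (adjusted p = 0.00994). Sp1 no longer passed without either control replicate 1 or NET replicate 2. Sp3 (158 and 154 CPM) and Sp6 (0.518 and 0.808 CPM) did not pass the test.

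**Figure D4:**
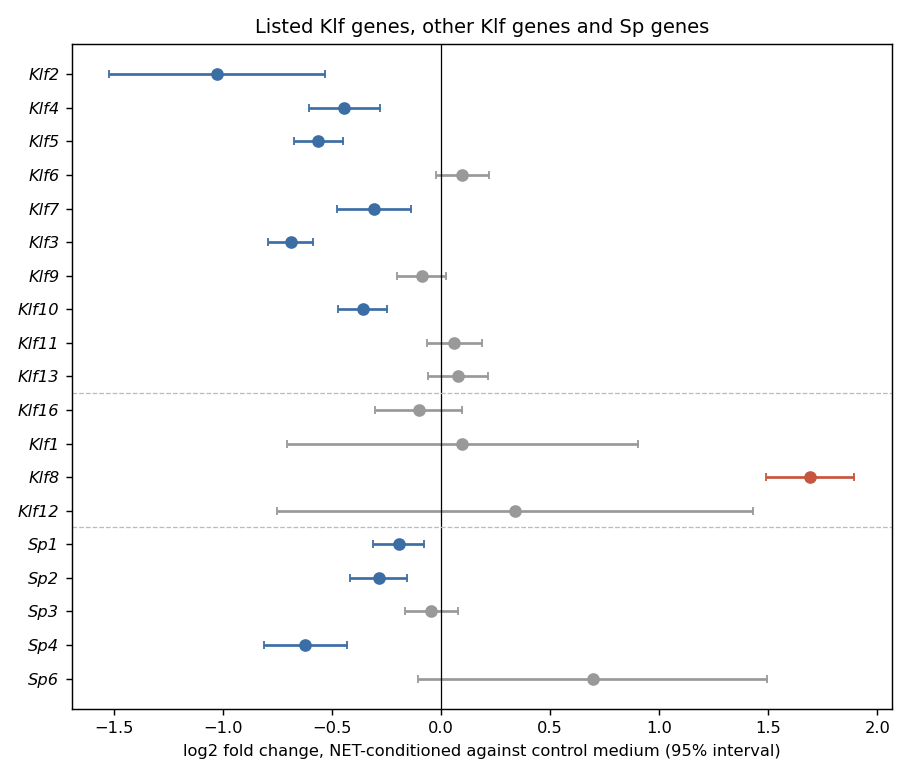
Log2 fold change with NET-conditioned against control medium (horizontal axis, bars are 95% intervals from edgeR, 3 libraries a group) for the 10 listed Klf genes (top), the 4 other tested Klf genes (middle) and the 5 tested Sp genes (bottom). Blue marks genes that fell, red a gene that rose and grey those not called; Klf8 at 1.69 is the only gene in red.

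Of 14 genes of corepressors and coactivators that KLFs recruit, all tested, 4 rose and 1 fell (median log2 fold change 0.05), where 20.2% and 18.7% of all tested genes did so. With library size alone 2 rose and 3 fell. Both CtBP genes, partners of KLF3 and KLF8, rose: Ctbp1 from 220 ± 13.8 to 266 ± 15 CPM (1.21-fold, adjusted p = 0.000841) and Ctbp2 from 70.9 ± 2.98 to 86.7 ± 3.29 CPM (1.22-fold, adjusted p = 0.000337). The acetyltransferase gene Kat2b, whose product acetylates histones and KLFs, fell 1.41-fold from 104 ± 2.04 to 74.0 ± 0.991 CPM (adjusted p = 3.83e-07). Sin3a, the partner of the KLF9 group, was at 143 and 148 CPM (adjusted p = 0.393), while Sin3b (1.14-fold) and the deacetylase gene Hdac2 (1.11-fold) rose by little. With library size alone the calls of Sin3b and Hdac2 were lost. That of Sin3b was also lost without control replicate 1 or 3, and that of Hdac2 with upper-quartile scaling and without control replicate 1 or 2, or NET replicate 2 or 3.

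Of 12 genes of enzymes that tag KLF or SMAD proteins with ubiquitin, or remove it, 6 rose and 0 fell (median log2 fold change 0.15), or 3 rose and 1 fell with library size alone. Over all tested genes 20.2% rose and 18.7% fell. Fbxo32, an F-box protein gene also known from muscle wasting, rose 2.29-fold from 36.4 ± 2.29 to 83.4 ± 1.33 CPM (adjusted p = 3.83e-11). The ligase genes Smurf1 (1.24-fold, to 255 ± 6.12 CPM), Itch (1.14-fold, to 181 ± 1.09 CPM), Smurf2 (1.12-fold) and Wwp1, whose product targets KLF5 (1.13-fold, to 50.1 CPM against 44.4 CPM, adjusted p = 0.0240), with the deubiquitinase gene Usp9x (1.19-fold) made up the rest. The call of Wwp1 was lost without control replicate 1 or 2, or without NET replicate 1 or 3, that of Smurf2 without control replicate 2 or NET replicate 3, and those of Wwp1, Smurf2 and Usp9x with library size alone. Of 8 genes of the ERK5 and MEF2 route, which induces Klf2 and Klf4 in endothelium, 0 rose and 1 fell, Mef2d, from 89.0 ± 3.90 to 75.5 ± 1.0 CPM (1.18-fold, adjusted p = 0.00147). With library size alone 5 of these 8 genes fell, in a setting where 3763 of all tested genes were called lower, against 2605 with TMM scaling.

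Target genes known from textbooks are read against the 38.9% of all tested genes that were called, 20.2% higher and 18.7% lower. Of 9 tested targets of KLF5, 2 rose and 3 fell (median log2 fold change -0.07). With DESeq2, limma-voom or library size alone 2 rose and 4 fell. Pdgfa, a growth factor gene, rose 2.86-fold to 86.7 ± 2.74 CPM against 30.4 ± 2.08 CPM (adjusted p = 3.84e-12), Egfr rose 2.00-fold to 32.0 ± 0.493 CPM, and the cyclin gene Ccnd1 fell 1.52-fold, Tnfaip2 fell 1.54-fold from 379 ± 17.2 to 246 ± 1.97 CPM, and Fgfbp1 fell 1.17-fold. Of 11 targets tied to KLF4 and KLF2, 5 were tested, of which 1 rose (Cdkn1a) and 1 fell (Cdh1). The endothelial genes of this list were near zero: Thbd at 0.0242 and 0 CPM, Nos3 at 0.276 and 0.194 CPM. The cell cycle inhibitor gene Cdkn1a, a target of both KLF4 and KLF6, went from 59.6 to 66.6 CPM (1.12-fold higher, adjusted p = 0.0273), a call that was lost with library size alone, upper-quartile scaling or no low-count filter, and without control replicate 1 or 3, or NET replicate 1 or 2. Squamous differentiation genes of that list, Sprr1a and Krt4, stood at 0.251 and 0.172 CPM in control medium and at 0.0572 and 0.0592 CPM with NETs, too low to test.

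The targets of KLF6 include genes of the TGF-beta pathway. Of 8 genes 3 rose and 4 fell (median log2 fold change -0.12), where 20.2% and 18.7% of all tested genes did so. With library size alone 1 rose and 4 fell, as the calls of Tgfb1 and Cdkn1a were lost, and with upper-quartile scaling 2 rose and 4 fell. The call of Tgfb1 was also lost when control replicate 1 or NET replicate 2 was left out. The receptor genes Tgfbr1 and Tgfbr2 fell 1.25-fold and 1.35-fold and the protease gene Plau 1.34-fold, while the co-receptor gene Eng rose 1.63-fold at a low level (1.58 to 2.57 CPM, adjusted p = 0.00696). The other gene of this list that fell was Cdh1 (log2 fold change -0.14). Lgals3, the galectin-3 gene, which KLF3 is known to repress, rose 1.17-fold from 324 ± 26.1 to 378 ± 19.8 CPM (adjusted p = 0.00627), a call lost with library size alone. Smad7, which KLF10 represses, rose 3.79-fold, and Ccl5, a chemokine gene that KLF13 activates in T cells, fell 1.90-fold from 32.7 ± 5.51 to 17.2 ± 1.27 CPM (adjusted p = 1.11e-05). Bcl2l1, a survival gene, fell 1.18-fold, and Smad2 was at 85.6 and 85.7 CPM.

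The glucocorticoid list holds the receptor gene Nr3c1 and genes that the hormone induces, as it does Klf9. Of 8 tested, 3 rose and 4 fell (median log2 fold change -0.24), where 20.2% and 18.7% of all tested genes did so. With library size alone 2 rose and 5 fell. The kinase gene Sgk1 rose 2.52-fold from 76.4 ± 8.53 to 193 ± 16.5 CPM (adjusted p = 3.43e-08), Fkbp5 rose 1.18-fold (not without NET replicate 3 or with library size alone), and the metallothionein gene Mt2 rose 2.11-fold at a low level (1.39 to 2.87 CPM). The clock gene Per1 fell 1.70-fold from 43.8 ± 1.70 to 25.7 ± 1.39 CPM (adjusted p = 4.23e-08), Tsc22d3, which encodes a glucocorticoid-induced leucine zipper protein, fell 1.46-fold, and Errfi1 fell 1.24-fold. Nr3c1 itself fell by 0.17 on the log2 scale (adjusted p = 0.0155), a call lost when control replicate 3 or either of NET replicates 2 and 3 was left out. Of 6 pluripotency partners of KLF4, Pou5f1, Sox2 and Nanog had 0 counts in every library. Of the 3 tested, 1 rose and 1 fell, where 20.2% and 18.7% of all tested genes did so. Tfcp2l1 fell 1.67-fold from 3.14 to 1.89 CPM (adjusted p = 0.00182). Esrrb rose 2.23-fold at a low level (0.423 to 0.949 CPM, adjusted p = 0.0204), a call lost without control replicate 3 or NET replicate 1. Myc was at 438 and 445 CPM (adjusted p = 0.858).

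**Figure D5:**
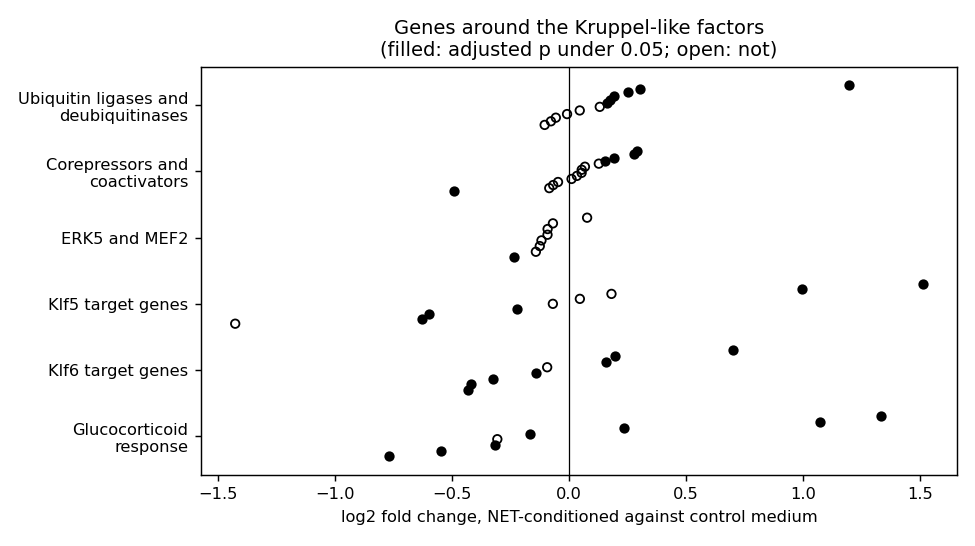
Log2 fold change with NET-conditioned against control medium (horizontal axis) of the tested genes of 6 lists, each point a gene, filled where the adjusted p was under 0.05. Filled points of the ubiquitin list lie to the right of 0 only (with library size alone 1 of its genes fell), with Fbxo32 farthest at 1.20, while both sides hold filled points in the target lists.

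The genes whose pattern over the 6 libraries was most like that of Klf2, the member with the largest change, were Gcsh, Ier3ip1 and Ocln, with Pearson correlations of 0.988, 0.987 and 0.985 of log2 CPM among 10081 genes compared. These points share the 2 groups of libraries. Their own changes were smaller than that of Klf2, with log2 fold changes of -0.06, -0.15 and -0.29, and of the 3 only Ocln, a tight junction gene, passed the test.

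In the coordinates of the deposited table, Klf3 spans 64960731 to 64990244 of chromosome 5, Klf5 99536127 to 99552472 of chromosome 14, Klf4 55527143 to 55532466 of chromosome 4 and Klf2 73072877 to 73075500 of chromosome 8. Klf7 spans 64068606 to 64161441 of chromosome 1, Klf10 38291707 to 38300950 of chromosome 15, and Klf8 152020462 to 152179128 of chromosome X. These spans run over exons and introns. The submitters' notes name mm10 (GRCm38), but 11.6% of 38933 symbols overlapped their GRCm38 position. For most symbols the coordinates are thus not those of GRCm38, and which build they follow was not determined.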

How the data were processed

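The 6 libraries were grouped by the treatment and number in their titles. The authors deposited 1 table of raw counts per gene symbol, made with STAR 2.7.10a and featureCounts of Subread 2.0.3, per the submitters' processing notes. The strand setting and the annotation are not given in the sources used. Of counts from 1 to 20 in a library, 74.8% to 78.4% were even, so the mates of a pair appear to have been counted separately.

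Counts were scaled by TMM, filtered with filterByExpr (minimum count 10) and tested with edgeR 4.0.16 in R 4.3.3 (robust quasi-likelihood fit on medium alone). P-values were adjusted over all 13956 tested genes, at 0.05. The test was tried on simulated data. Length-scaled levels used the deposited exon length. The 16 alternatives, given in the closing section, were other scalings and filters, DESeq2 1.42.0, limma-voom (limma 3.58.1), halved counts, a replicate block and each library left out.

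The members and lists were chosen with earlier results of these data known. All members were named, with up to 6 genes of each list by smallest p and the 3 genes most like the member that changed most. Any further gene was chosen with its values in view, and 1 gene of a list is not reported here. Replicates of a group differed by 9.59 to 25.1 times the counting noise (chi-square per degree of freedom), and each was counted once.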

Additional observations from a re-analysis of the deposited data

How the results depend on the processing

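The 6 falls (Klf2, Klf3, Klf4, Klf5, Klf7 and Klf10) and the rise of Klf8 kept direction and call under all 16 alternatives, among which adjusted p was at most 0.0469 (Klf7 without NET replicate 3). The number of members called lower was 6 in all but 1 setting, 7 with library size alone, where Klf9 was added. The number called higher was 0 to 1 when each library was left out, with Klf6 the added call without control replicate 3, and 0 in the other settings. Genes called over the whole table numbered 4321 to 5869. Among members and other Klf genes without a call the sign turned for Klf11 with library size alone (log2 fold change -0.0078), for Klf1 without NET replicate 3 (-0.27 to 0.26 over the left-out libraries) and for Klf16 without control replicate 2 (-0.18 to 0.028), and the cause was not tested. Alternatives for other Klf genes were added after seeing the data. Deviations from the group mean had r = 0.12, -0.059 and 0.056 between same-numbered libraries, and -0.17 to 0.11 between the others. With 3 libraries a group these values cannot tell whether the numbers pair the libraries. With the replicate block 5682 genes were called, with 6 members lower and 0 higher. Klf2 had the fewest counts of the members, 29 to 147 per library.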
